A study of Mus musculus with 36 samples.

Results

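The comparison described here was that of livers from YAP transgenic (YAP Tg) mice with livers from control mice by RNA sequencing. Its members were chosen by genotype label: 3 YAP Tg and 3 control libraries, 6 of the 36 samples in the series. The control mice were wild type C57BL/6, and the YAP Tg mice carried the YAP transgene on the same C57BL/6 strain. Both groups received doxycycline, which the labels describe as 50 mg/L in drinking water given to mice 1 month old or to nursing mothers of newborn pups. The duration, and which of these ages a library came from, are not stated per sample. The promoter and cell type that drive the transgene and the species of the YAP it encodes are not stated either. Nothing in the labels says that the 3 libraries of a group came from separate animals, so p-values measure the spread between these libraries, which may be technical. The other 30 samples (RNA from Tet1 knockout YAP Tg livers with and without decitabine, methylated DNA, input and chromatin immunoprecipitation) enter no main result. Of these, only the 3 RNA libraries of Tet1 knockout YAP Tg livers without decitabine enter an alternative fit. Of 18591 genes in the table, 13527 had at least 0.5 normalised reads in at least 3 of the 6 libraries and were tested. A normalised read is the unit of the deposited values, reads relative to the library total (RPM) scaled by the trimmed mean of M-values (TMM).

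YAP is a transcriptional coactivator that has no DNA-binding domain of its own and reaches DNA through TEAD factors. The Hippo kinase cascade, in which MST kinases activate LATS kinases, phosphorylates YAP and keeps it in the cytoplasm. In mouse liver, forced YAP activity is known for enlarging the organ and for moving hepatocytes away from their adult state, and targets such as Ctgf, Cyr61, Ankrd1 and Amotl2 are used as readouts of its activity.

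The promoters of 3 of these readouts are printed, and each carries the letters that TEAD factors are known to bind. Ctgf is left out because it had no entry among the promoters used. Each runs from 250 bases before to 50 bases after the start of the gene, from RefSeq on GRCm38.p6, with the word GGAATG or its reverse complement CATTCC in capitals.
Cyr61: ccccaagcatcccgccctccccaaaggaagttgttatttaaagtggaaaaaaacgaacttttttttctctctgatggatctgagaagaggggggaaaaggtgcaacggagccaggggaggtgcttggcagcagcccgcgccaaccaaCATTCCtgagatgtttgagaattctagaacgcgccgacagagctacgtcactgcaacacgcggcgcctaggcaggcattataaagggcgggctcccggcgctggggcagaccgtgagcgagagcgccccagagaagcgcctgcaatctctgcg
Ankrd1: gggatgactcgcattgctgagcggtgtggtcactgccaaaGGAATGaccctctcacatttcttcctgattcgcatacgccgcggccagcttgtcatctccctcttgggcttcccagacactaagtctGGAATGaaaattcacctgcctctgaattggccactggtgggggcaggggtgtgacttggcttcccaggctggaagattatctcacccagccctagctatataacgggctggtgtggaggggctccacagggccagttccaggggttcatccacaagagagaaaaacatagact
Amotl2: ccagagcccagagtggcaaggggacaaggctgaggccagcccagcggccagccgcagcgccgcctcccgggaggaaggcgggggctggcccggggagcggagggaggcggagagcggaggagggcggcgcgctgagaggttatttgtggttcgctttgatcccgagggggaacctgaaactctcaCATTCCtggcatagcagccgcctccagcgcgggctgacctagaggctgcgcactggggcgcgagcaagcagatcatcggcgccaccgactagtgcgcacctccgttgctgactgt
The Cyr61 window lies at chr3:145649936-145650235 on the minus strand, the Ankrd1 window at chr19:36119795-36120094 on the minus strand and the Amotl2 window at chr9:102717554-102717853 on the plus strand. Counted from the start of the gene, the word began at -103 in Cyr61, at -210 and -123 in Ankrd1, and at -65 in Amotl2. On either strand it occurred in 14.6% of the 27025 promoters in the table, so its presence is a description and not a binding site. No comparison of promoter words between genes that rose and genes that fell was made, because only 79.0% of the tested genes had an entry. Cyr61, which encodes a secreted matrix protein, measured 6.31, 4.94 and 6.05 normalised reads in controls 1 to 3 and 62.6, 62.1 and 67.4 in YAP Tg 1 to 3. For Ankrd1, an ankyrin repeat protein, the values were 0.76, 0.178 and 0.356 in controls and 61.8, 65.7 and 65.6 in YAP Tg livers. Amotl2, an angiomotin that binds YAP, was at 20.6, 17.1 and 22.8 in controls and at 156, 158 and 150.5 in YAP Tg livers. For all 3 genes every YAP Tg library lay above every control library. The groups did not overlap, in either direction, in 73.1% of all genes tested.

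The 6 libraries held 19954131 to 25067861 reads assigned to genes. Normalisation raised the controls (TMM factors 0.844 to 0.897) against the YAP Tg libraries (1.17 to 1.18). The most abundant genes that together took 50% of the reads numbered 136 to 154 in controls and 212 to 225 in YAP Tg livers. Control 2 stood apart from the other controls: Rn45s, the ribosomal RNA precursor, took 0.148% of its reads against 7.82% and 6.44% in controls 1 and 3, and 0.132% to 0.191% in YAP Tg libraries. The other pairs within a group differed by a coefficient of variation of only 0.0072 to 0.0418 beyond counting error. A list of 22 genes of developing neurons, drawn up after their values had been seen, summed to 78.4, 95.8 and 3.26 normalised reads in controls 1 to 3 and to 49.3, 52.4 and 25.7 in YAP Tg 1 to 3. Xist, the RNA of the inactive X chromosome, was at 12.9, 15.3 and 0.119 in controls and 5.83, 0.137 and 0.182 in YAP Tg libraries, while the Y-linked Kdm5d was at 33.5, 36.2 and 32.3 and 32.4, 34.2 and 34.6. None of the 19 neuronal genes tested was called, but 15 were called lower without control 3 and 1 higher without control 2. Xist was not called either, nor was Kdm5d, and Uty (log2 fold change -0.15) was called lower without control 2 or YAP Tg 3 but not in all 6 libraries. By contrast, the Y-linked Ddx3y and Eif2s3y were lower by 0.49 and 0.43, calls lost in RPM without TMM. The part these library differences play in the results was not tested, beyond the values without each library.

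Genes rose and fell in similar numbers in YAP Tg livers. By limma with Benjamini-Hochberg adjustment over all genes tested, 9281 genes passed an adjusted p of 0.05, which is 68.6% of those tested. Of these, 4771 (35.3% of those tested) were higher in YAP Tg livers and 4510 (33.3%) were lower. A change of at least 2-fold was called for 1984 higher genes (14.7%) and 1283 lower genes (9.48%), and for most calls (6014) the change was smaller than 2-fold. On the log2 scale of the test, which understates the change of low genes, 53 genes were at least 32-fold lower and 25 at least 32-fold higher. At 4-fold the rises outnumbered the falls, 580 to 368. Over the whole table, 255 genes had no read in any control library and at least 1 in every YAP Tg library. The opposite held for 60 genes. How far the scale sets the excess of falls at 32-fold was not tested. Without TMM scaling the median gene moved up by 0.41 on the log2 scale, and RPM values gave 7966 higher and 2268 lower genes, so a small fall can change sign with the scaling. The first principal component of the 6 libraries held 93.3% of the variance. With libraries of a coefficient of variation below 0.05 averaged, 3 libraries are left (controls 1 and 3 as 1, control 2, and the 3 YAP Tg libraries as 1), and the lone YAP Tg value is assumed to vary like the controls. In that fit 2492 genes were called higher and 2024 lower. Among the genes described here, those that lost their call in it were Apob, Arhgef17, Bhmt, Bmp2, Ccdc80, Ccnd2, Cdh1, Cdkn1a, Ddx3y, Des, Dock5, Eef1a1, Eif2s3y, Erbb3, Fabp4, Foxa1, Foxa2, Hnf4a, Hp, Hsd17b13, Igfbp3, Kng1, Lats1, Lats2, Lyve1, Met, Mob1a, Mycn, Notch1, Notch2, Rbl2, Rn45s and Tgfb3. Beside the counts of a gene list below, the counts in RPM without TMM or with libraries averaged follow in brackets where either moved by more than 1.5 times or, in RPM, the share of higher among called genes moved by more than 10 percentage points. Counts outside brackets are to be read against 35.3% higher and 33.3% lower of all genes tested. RPM counts are to be read against the 7966 higher and 2268 lower of 13527 genes in RPM. Averaged counts are to be read against those of that fit above.

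**Figure D1:**
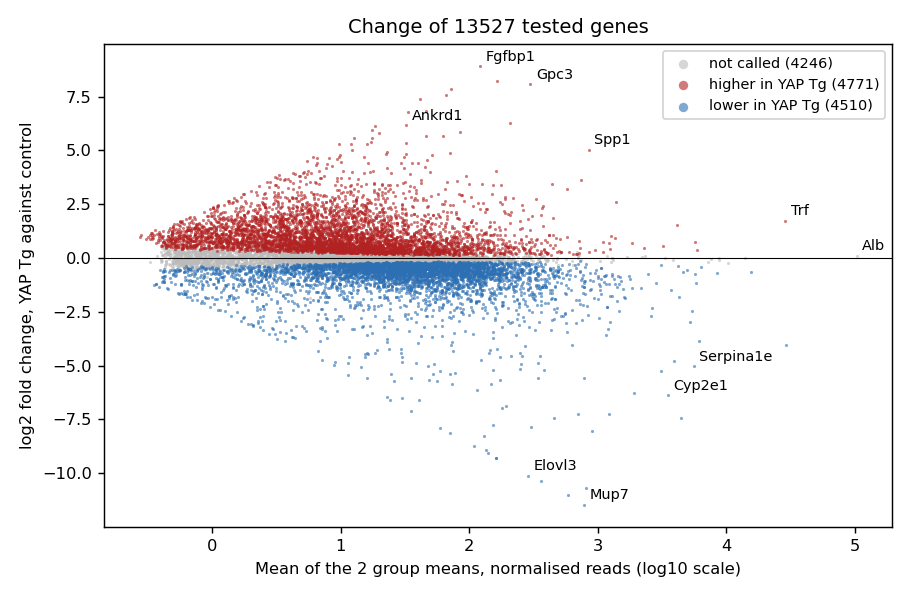
Log2 fold change (vertical axis, YAP Tg against control, 3 libraries per group) of each of 13527 genes against its mean level (horizontal axis, log10 of normalised reads). Red points were called higher (4771), blue points lower (4510) and grey points neither (4246), and blue points dominate at the right, where the most abundant transcripts lie.

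Direction differed with the level of a gene, taken as reads with no correction for transcript length. Among the 100 tested genes with a mean above 1000 normalised reads, 68 were lower and 14 were higher, and their median log2 fold change was -0.85. Among the 3558 genes between 2 and 10 normalised reads, 1715 were higher and 661 were lower, with a median of 0.31. The median over all genes tested was 0.01, and no chromosome with more than 100 tested genes had a median outside -0.12 to 0.15. Over the whole table, tested or not, 255 genes had no read in any control library and at least 1 in every YAP Tg library, and 60 genes showed the opposite.

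Trf, the serum iron carrier transferrin (chr9:103208875-103230286, minus strand, GRCm38.p6), gained the most normalised reads: it measured 11641, 16366 and 12264 normalised reads in controls and 44065, 44161 and 43629 in YAP Tg livers. That moved it from 0.997% to 1.47% of the reads of a control library to 5.10% to 5.20% of a YAP Tg library. After Trf, the 9 largest gains were those of Cp (ceruloplasmin), Bhmt (betaine-homocysteine methyltransferase), Sult1a1 (a phenol sulfotransferase), Spp1 (osteopontin), Eef1a1 (a translation elongation factor), Anxa5 (annexin A5), Kng1 (kininogen), Ahnak (a large scaffold protein) and Hp (haptoglobin). Sult1a1 stood at 393, 402 and 393 in controls and 2380.0, 2382 and 2417 in YAP Tg livers, a rise of 2.59 ± 0.05 on the log2 scale (± SE here and below). Anxa5 stood at 126, 87.3 and 122 against 1341, 1349.7 and 1441, and Ahnak at 109.8, 107 and 119 against 1042, 1054 and 1030.4. In none of these 3 did the groups overlap.

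The 10 largest losses were that of Rn45s and those of 9 genes that hepatocytes express: Serpina3k and Serpina1e (serum protease inhibitors), Mup3 and Mup20 (major urinary proteins), Scd1 (stearoyl-CoA desaturase), Fabp1 (liver fatty acid-binding protein), Apob (the core protein of very low density lipoprotein, not called without TMM scaling), Cyp2e1 and Cyp3a11 (cytochromes P450). The loss of Rn45s, 91374, 1654 and 76219 in controls against 1457, 1626 and 1133, rested on controls 1 and 3 and was not called without either of them or without any YAP Tg library. Fabp1 fell from 7404, 8004 and 7417 in controls to 282, 275 and 271 in YAP Tg livers. Scd1 fell from 10976, 5686 and 11451 to 1138, 1134 and 1166, with control 2 the lowest of the controls. The 20 Mup genes of the table together took 1.89% to 1.91% of control reads and 0.193% to 0.206% of YAP Tg reads. Several of them are near-identical copies, so how reads divide among those is uncertain.

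Several transcripts went from near absence to high levels. Fgfbp1, a carrier that releases fibroblast growth factors from matrix (chr5:43978857-43981799, minus strand, GRCm38.p6), had no read in the controls and 248, 244 and 237 normalised reads in YAP Tg livers. That is at least 4570-fold higher if 3 reads are taken as the most that could have been missed in the controls. Sftpd, surfactant protein D, was at 0.468, 0.133 and 0.356 in controls and 93.3, 94.4 and 87.5 in YAP Tg livers, a rise of 6.84 ± 0.15. H2-Q1, a class I histocompatibility gene, was at 5.61, 4.05 and 4.81 against 397, 410.3 and 418, a rise of 6.27 ± 0.10. At the other end, Hsd3b5, a steroid dehydrogenase, went from 223, 359.9 and 228 to 0.036, 0.0687 and 0.0365, a fall of 8.92 ± 0.17. The unnamed transcript 2810007J24Rik went from 1556, 1713 and 1579 to 0.612, 0.344 and 0.474. Among genes above 100 normalised reads, those nearest to no change were Timd2, Btf3, Slc25a39, Setd3 and C9. Btf3 measured 123, 109 and 123 in controls and 119, 117 and 120.1 in YAP Tg livers, and the groups overlapped.

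The level of the Yap1 gene in the table was lower, not higher, in livers labelled YAP Tg. It measured 58.6, 47.1 and 58.8 normalised reads in controls and 27.6, 32.1 and 29.9 in YAP Tg livers, a fall of 0.86 ± 0.10 (limma adjusted p = 6.9e-05). Whether reads of the transgene would count towards this mouse gene is not given in the sources used here, so Yap1 does not check the label. Its paralog Wwtr1, which encodes TAZ, stood at 44.2, 36 and 47.4 in controls and 75.1, 74.9 and 76.6 in YAP Tg livers and rose by 0.83 ± 0.10. Of the 10 tested genes for YAP, TAZ and their TEAD, VGLL and RUNX partners, 6 were higher and 2 lower (7 higher and 1 lower in RPM, 6 and 1 averaged), and 1 was lower without YAP Tg 1 or 3.

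The partners differed in size and direction of change, as 2 genes of this list, Yap1 among them, were lower. Tead4, a DNA-binding partner, was at 0.526, 0.4 and 0.534 in controls and 11.3, 11.1 and 10.6 in YAP Tg livers, a rise of 3.55 ± 0.12. Vgll3, a TEAD cofactor, was at 0.175, 0.178 and 0.297 against 39.7, 38.2 and 41.7, a rise of 5.82 ± 0.11. Both groups were separate for each, and the YAP Tg values lay close together. Tead1 rose by 0.99 ± 0.14 and Tead2 by 1.07 ± 0.24, whereas Tead3 (log2 fold change 0.29, 95% interval -0.05 to 0.62) did not pass the test. The RUNX partner Runx1 rose by 1.00 ± 0.18, and Runx2 was at 0.703 and 0.554 on average and was not called.

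**Figure D2:**
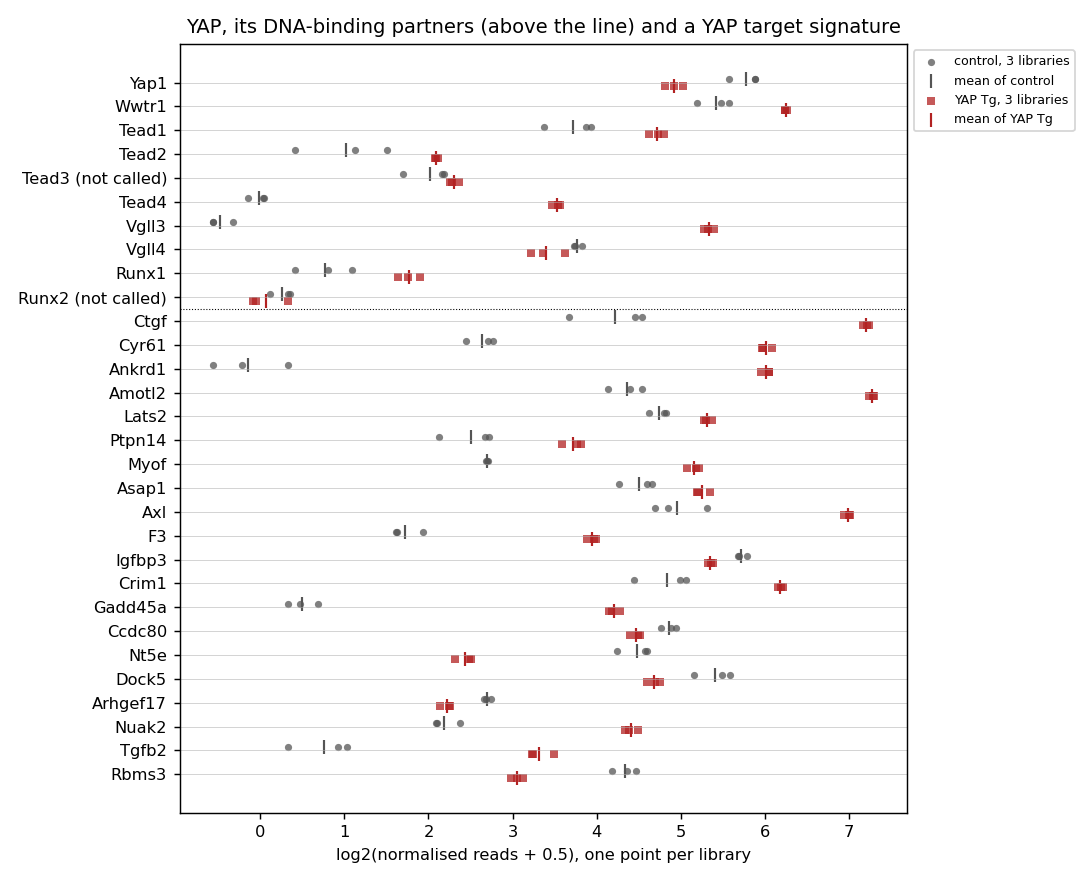
Level of YAP, its partners and a 22-gene YAP target signature (20 tested) in each of the 6 libraries, as log2(normalised reads + 0.5) on the horizontal axis; grey circles are control and red squares YAP Tg libraries, and vertical ticks are group means. Ankrd1, Vgll3 and Gadd45a show the widest gaps between groups, and Yap1, Nt5e and Rbms3 lie to the left in YAP Tg livers.

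The target signature moved in both directions, too. Of its 20 tested genes 14 were higher and 6 lower (14 higher and 3 lower in RPM, 13 and 2 averaged), with a median log2 fold change of 1.69 against 0.01 over all genes tested; Fjx1 and Foxf2 were too low to test. Gadd45a, a stress-inducible growth arrest gene, was at 1.11, 0.756 and 0.89 in controls and 18.9, 17.7 and 17.3 in YAP Tg livers. Axl, a receptor tyrosine kinase, rose from a mean of 31 to 126, and Myof, a membrane-repair ferlin, from 5.97 to 35.2. Against the name of the list, Nt5e, the ectonucleotidase CD73, measured 23.4, 18.5 and 23.7 in controls and 5.18, 4.47 and 5.1 in YAP Tg livers, a fall of 2.04 ± 0.12. Rbms3, an RNA-binding protein, fell by 1.29 ± 0.10, and Dock5, an exchange factor for Rac, by 0.73 ± 0.11. The other 3 that fell were Arhgef17 by 0.48, a call lost in RPM without TMM, Ccdc80 by 0.40 and Igfbp3 by 0.36, of which Ccdc80 and Igfbp3 turned to 0.035 and 0.073 in RPM without TMM.

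Within the upstream Hippo module, 15 of 25 genes were higher and 4 lower (22 higher and 2 lower in RPM, 11 and 1 averaged), and 7 were lower without control 2. The rises included scaffold genes. Among scaffolds that hold YAP or LATS, Ajuba was at 3.51, 4.58 and 3.68 in controls and 66.9, 65.7 and 62.6 in YAP Tg livers, Amot rose from a mean of 14.4 to 60.4, and the LATS activator Wwc1 (KIBRA) rose by 2.14 ± 0.06. Wtip, a relative of Ajuba, rose from 0.468, 0.979 and 0.653 to 7.06, 7.73 and 8.24. Of the kinases, Lats2 rose by 0.57 ± 0.08 and Lats1 fell by 0.55 ± 0.06, with 80.5, 81.6 and 82.3 in controls against 56.1, 52.8 and 57.3, a call lost without TMM scaling. Their cofactor Mob1b fell by 1.38 ± 0.08, and its paralog Mob1a rose by 0.62 ± 0.08. The MST2 kinase gene Stk3 (log2 fold change -0.13, 95% interval -0.33 to 0.06), Sav1 and Nf2 were not called, and their groups overlapped.

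In the EGF family, 7 of 18 tested genes were higher and 6 lower, shares near those over all genes tested (35.3% and 33.3%). Ligand genes were found in both directions. Nrg1, a ligand of ERBB receptors, was at 0.351, 0.356 and 0.119 in controls and 19.8, 19.3 and 18.7 in YAP Tg livers, a rise of 4.69 ± 0.15. Tgfa, an EGFR ligand, was at 20.9, 20.2 and 24 against 69.7, 73.5 and 76.8, and Hbegf at 0.818, 0.934 and 1.66 against 12.4, 12.2 and 11.1. Egfr, a receptor, fell from 1261, 1864 and 1314 to 397, 392 and 409. Errfi1, a feedback inhibitor of that receptor, fell from 1962, 1772 and 2024 to 556, 561 and 591. Btc, another ligand, rose by 1.47 ± 0.11 and Erbb4 by 1.51 ± 0.08, while Erbb3 fell by 0.61 ± 0.08 and Nrg4 by 1.70 ± 0.21. Epidermal growth factor itself (Egf) stayed below 1 normalised read in every library.

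In the FGF, HGF, VEGF and PDGF list, 10 of 24 genes were higher and 6 lower (16 higher and 1 lower in RPM, 7 and 1 averaged). The lower count was 3 without control 3, YAP Tg 1 or YAP Tg 2. The shares over all genes tested were 35.3% higher and 33.3% lower with TMM. In RPM, 7966 of all 13527 genes tested were higher and 2268 lower. Pdgfb, the PDGF B chain, was at 0.175, 0.311 and 0.534 in controls and 9, 9.31 and 9.62 in YAP Tg livers, a rise of 3.57 ± 0.16, and Pdgfa and Pdgfc rose by 1.63 ± 0.14 and 1.15 ± 0.09. Fgf1, a hepatocyte-expressed FGF, fell from 178, 145 and 172 to 40.4, 40.3 and 43.1. Fgf21, a fasting hormone, rose by 1.30 ± 0.17, and its co-receptor Klb was not called at -0.06. Met, the HGF receptor, fell by 0.49 ± 0.06, a call lost without TMM scaling. Neither Vegfa (95% interval -0.07 to 0.23) nor Hgf (-0.34 to 0.01) was called.

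TGF-beta and BMP signalling genes were largely higher, 20 of 33, with 9 lower (22 higher and 3 lower in RPM, 14 and 2 averaged). Bmp4 was at 1.75, 1.82 and 1.19 in controls and 32.8, 32.2 and 31.5 in YAP Tg livers, a rise of 3.98 ± 0.13. Id1 and Id3, targets of BMP signalling that block basic helix-loop-helix factors, rose by 3.94 ± 0.15 and 3.39 ± 0.11, and Id2 rose from 68.3 to 306 on average. All 3 TGF-beta ligands rose: Tgfb2 by 2.55 ± 0.19, Tgfb1 by 1.15 ± 0.10 and Tgfb3 by 0.72 ± 0.13. The inhibitory Smad7 rose by 1.72 ± 0.08. Activin genes of hepatocytes went the other way, Inhbe falling from 14.1, 12.2 and 15 to 4.43, 5.12 and 5.18 and Inhbb by 1.22 ± 0.17. Bmp2 fell by 0.67 ± 0.08. The BMP receptor gene Bmpr1a was not called (95% interval -0.16 to 0.17).

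The Notch list showed 9 higher and 3 lower of 18 tested (13 higher and 1 lower in RPM, 4 and 1 averaged), and 1 lower without control 2 or YAP Tg 2 or among genes that reached at least 2 normalised reads. Shares over all genes tested were 35.3% higher and 33.3% lower. Jag1, the ligand known for driving bile duct formation, was at 9.18, 6.85 and 8.96 in controls and 60.3, 62.4 and 64.6 in YAP Tg livers. Hes1, a direct Notch target, was at 6.08, 3.83 and 5.58 against 37.4, 37.7 and 38.2. The groups were separate for both. Hey1 rose by 1.71 ± 0.20 and the glycosyltransferase Lfng by 1.66 ± 0.11, the receptors Notch1 and Notch2 by 0.57 ± 0.08 and 0.55 ± 0.06, and Hes6 fell by 1.54 ± 0.14.

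Cell cycle genes were mostly higher, 25 of 33 tested, with 4 lower (18 higher and 1 lower averaged) and a median log2 fold change of 0.90. Ccnd1 (cyclin D1), which drives the exit from quiescence, was at 33.5, 34.3 and 32.2 in controls and 198, 203 and 204 in YAP Tg livers. Mki67, a proliferation marker, was at 17.9, 22.7 and 12.4 against 113, 112 and 110.1. Ccnb2, a mitotic cyclin, rose from 0.818, 2.27 and 1.31 to 12.9, 12.8 and 13.9, with control 2 the highest of the controls. E2f1 rose by 2.20 ± 0.15, Foxm1 by 1.81 ± 0.34 and Myc by 1.61 ± 0.10. Inhibitors of the cycle that rose included Cdkn1c by 1.78 ± 0.12, Cdkn2c by 1.17 ± 0.10 and Cdkn1a by 0.62 ± 0.10. The genes that fell were the repressor E2f8 by 1.16 ± 0.16, Mycn by 0.65 ± 0.16 and Ccnd2 by 0.63 ± 0.07, and Rbl2 fell by 0.43 but was at 0.0037 in RPM without TMM. Cdk2 was at 11.3, 8.32 and 10.4 against 9.4, 10.4 and 10.6 and was not called.

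AP-1 and immediate-early genes rose in 16 of 17 cases, with none lower and a median of 1.46. Fos was at 0.818, 1.2 and 0.95 in controls and 17.9, 19.9 and 19.4 in YAP Tg livers, a rise of 3.72 ± 0.12. Dusp1, a phosphatase of MAP kinases, rose from 26.8 to 117 on average and Klf6 from 23.4, 20.8 and 22.3 to 101, 102 and 104. Atf3 rose by 2.51 ± 0.14, Junb by 1.92 ± 0.11 and Jun by 0.84 ± 0.11. Zfp36, an mRNA-decay factor, was the 1 tested member not called, at 58.8 and 59.4.

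Of 36 keratin, tubulin and actomyosin genes 26 were higher and 2 lower (21 higher and 1 lower averaged), with a median log2 fold change of 0.87 and 5 lower without control 3. Krt18, a keratin of simple epithelia, was at 103, 150.1 and 114 in controls and 629.9, 629 and 587 in YAP Tg livers, and its partner Krt8 at 117, 134 and 125 against 457, 454 and 425. Myl12a, a regulatory myosin light chain, rose from 49.4, 44.4 and 49.9 to 298, 305 and 289. Myh9 (non-muscle myosin) and Flna (filamin A) rose by 1.50 ± 0.06 and 1.65 ± 0.09, and Actb and Actg1 by 0.91 ± 0.11 and 1.42 ± 0.13. Tpm2 fell by 1.21 ± 0.15 and Des by 0.82 ± 0.13. Tubb3, Tubb2b and Tuba1a were not called and followed the neuronal genes across libraries, Tubb3 at 4.56, 7.7 and 0.119 in controls and 3.71, 3.81 and 1.42 in YAP Tg livers. Without control 3, Tubb3 and Tubb2b were called lower, at -0.98 and -0.90.

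Junction and matrix-receptor genes were higher in 18 of 32 cases and lower in 9 (23 higher and 6 lower in RPM, 13 and 5 averaged), and their summed levels overlapped, 2769 to 3059.6 in controls and 2923 to 3002 in YAP Tg livers. Lama5, a laminin chain, stood at 3.45, 3.87 and 4.27 in controls and 36.8, 34.1 and 33.4 in YAP Tg livers. The laminin-binding integrin genes Itga3 and Itga6 rose by 2.54 ± 0.13 and 1.85 ± 0.12, and Cd44, a hyaluronan receptor, by 1.57 ± 0.09. Genes that fell included Cldn2 (a pore-forming claudin), from 94.9, 111 and 95 to 32.5, 32.5 and 33.9, and the connexins Gjb1 and Gjb2 by 0.96 ± 0.09 and 0.98 ± 0.06. Cdh2 (N-cadherin) fell by 0.87 ± 0.10 while Cdh1 (E-cadherin) rose by 0.23 ± 0.06.

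Biliary and progenitor markers did not move as 1 group. Of 21 listed, 14 passed the level filter, of which 7 were higher and 2 lower (11 higher and 2 lower in RPM). Among all genes tested the shares were 35.3% higher and 33.3% lower. Spp1, made by duct cells and macrophages, was at 53.7, 44.5 and 53.4 in controls and 1655, 1679 and 1652 in YAP Tg livers, a rise of 5.03 ± 0.08. Sox4 was at 2.45, 2.89 and 1.42 against 26.6, 27.1 and 26.2, and Prom1, a progenitor surface marker, at 2.63, 1.47 and 1.54 against 25, 25.3 and 24.8. Sox9 rose by 1.38 ± 0.14 and Pkhd1, a ciliary protein of ducts, by 2.47 ± 0.07. The mature duct keratin Krt19 was at 0.584, 0.534 and 0.89 in controls and 0.432, 0.241 and 0.583 in YAP Tg livers and was not called, and Krt7 was too low to test. Epcam, at 1.69, 1.2 and 2.2 against 2.56, 2.17 and 2.66, had overlapping groups. Tff3 fell by 1.77 ± 0.26.

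Transcription factors that maintain hepatocytes fell in 22 of 31 cases and rose in 3 (7 higher and 16 lower in RPM, 0 and 14 averaged), with a median of -0.70 and 5 higher without control 2. Nr1i3, the xenobiotic receptor CAR, was at 50.8, 67.4 and 58 in controls and 1.62, 1.79 and 1.39 in YAP Tg livers, a fall of 4.82 ± 0.12. Nr0b2, the bile acid-induced repressor SHP, went from 15, 9.47 and 16 to 0.684, 1.2 and 0.802. Onecut2 went from 204, 167 and 199 to 59.8, 56.6 and 60.6. Ppara fell by 1.43 ± 0.06, Cebpb by 1.61 ± 0.14, Creb3l3 by 1.46 ± 0.08 and Nr1i2 (PXR) by 1.11 ± 0.09. Hnf4a, the central factor of the network, went from 605, 462 and 643 to 375, 382 and 381, a fall that was not called in RPM without TMM. Cebpa (95% interval -0.07 to 0.24) was not called, and the pioneer factors Foxa1 and Foxa2 rose by 0.49 ± 0.09 and 0.54 ± 0.19, the Foxa2 call being lost without any 1 of the YAP Tg libraries. Of 12 secreted and metabolic genes that define hepatocytes, 6 were lower and none higher (4 higher and 4 lower in RPM, 0 and 3 averaged), with a median of -0.31. Lower genes made up 33.3% of all genes tested and higher genes 35.3%. Alb (albumin) was at 99329 and 106706 on average with an interval of -0.18 to 0.39, and Apoa1 (interval -0.25 to 0.16) was not called. Tat, the tyrosine catabolic enzyme, fell by 2.46 ± 0.10 and Ttr, the thyroid hormone carrier transthyretin, by 2.31 ± 0.16.

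Zonation genes of both poles of the lobule fell. Of 20 pericentral genes 19 were lower and none higher, with a median of -3.52, and of 22 periportal genes 16 were lower and 3 higher (6 higher and 16 lower in RPM, 1 and 15 averaged), with a median of -1.84. Glul, glutamine synthetase of the innermost cells around the central vein, went from 1164, 1196 and 1216 to 73.3, 72.3 and 73.2. Slc1a2, a glutamate transporter, went from 228, 224 and 234 to 2.7, 3.09 and 2.66, and Cyp2a5 from 390.4, 307 and 381 to 2.84, 1.92 and 2.48. The groups lay far apart in these 3 genes, with little spread among the controls. The 1 pericentral gene not called was Slc1a4 (95% interval -0.02 to 0.68), which was called higher without control 2 and in RPM.

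On the periportal side, Cyp2f2 went from 749, 776 and 839 to 78, 76.2 and 76.3. Sds, serine dehydratase, went from 54.1, 71.8 and 59.2 to 8.53, 8.83 and 7.77, and G6pc, the last enzyme of gluconeogenesis, from 1106, 1347 and 1156 to 144, 153 and 151. The periportal genes that rose were Ctsc by 0.83 ± 0.06, Hsd17b13 by 0.46 ± 0.13 and Cdh1. Averaging ended the calls of Hsd17b13 and Cdh1, and Hsd17b13 was not called without YAP Tg 3 (limma adjusted p = 0.0505). Without control 2 the higher count was 5. Summed over each list, control libraries held 13210.3 to 13844 normalised reads of pericentral genes and YAP Tg libraries 1007 to 1023. For periportal genes the sums were 17029 to 17755 against 7503 to 7689.6.

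Wnt signalling, which maintains the pericentral program, had 14 lower and 4 higher of 23 tested genes (6 higher and 11 lower in RPM, 2 and 9 averaged). Among feedback targets, Notum went from 15.7, 22.3 and 16.2 in controls to 0.324, 0.172 and 0 in YAP Tg livers, Axin2 fell by 1.58 ± 0.13 and Tbx3 by 2.87 ± 0.11. Both R-spondin receptor genes of the list fell, Lgr5 from 7.31, 7.56 and 7.18 to 0.072, 0.137 and 0.437 and Lgr4 from 149, 127 and 151 to 43.8, 43.3 and 50.1. The ligands Wnt2 and Rspo3, made by central vein endothelium, fell by 1.56 ± 0.16 and 1.19 ± 0.14, and Wnt9b was not called at -0.15. Fzd7 rose by 1.50 ± 0.10 and Fzd6 by 0.88 ± 0.11.

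**Figure D3:**
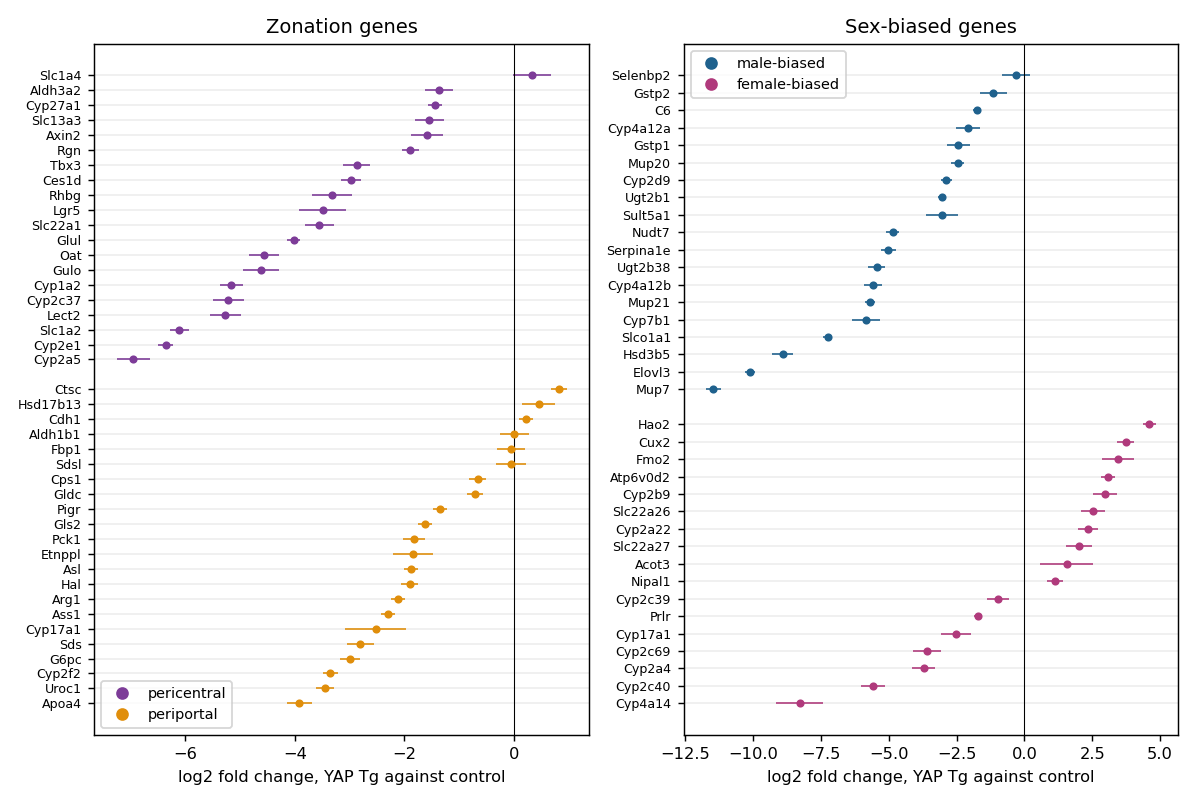
Log2 fold change (points, YAP Tg against control, 3 libraries per group) with 95% intervals (bars) for every tested pericentral and periportal gene (left) and every tested male-biased gene and 17 of the 18 tested female-biased genes (right). All points but 1 of the pericentral genes lie left of -1, the male-biased genes lie left of 0, and the female-biased genes lie on both sides.

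Male-biased liver genes fell. Of 19 male-biased genes tested 18 were lower and none higher, with a median log2 fold change of -4.86. Slco1a1, an organic anion transporter, went from 1354, 1477 and 1384 to 8.64, 8.01 and 9.44. Cyp7b1 fell by 5.85 ± 0.23 and Nudt7 fell by 4.86 ± 0.11. The 1 not called, Selenbp2, was at 539, 1096 and 569 in controls and 582, 571 and 529.8, with control 2 far above the other controls.

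Female-biased genes split, 11 higher and 7 lower of 18 tested, and 8 more were too low to test. Of all genes tested 35.3% were higher and 33.3% lower. Hao2, a hydroxyacid oxidase, went from 0.234, 0.311 and 0.297 to 18.5, 18.8 and 18.2. Cux2, a repressor of male-biased genes in female liver, rose from 0.584, 0.4 and 0.712 to 13.4, 13.4 and 14. Opposite to these, Cyp4a14 fell from 329, 107 and 342 to 0.216, 0.275 and 0.219 and Cyp2c40 by 5.59 ± 0.19. Hao2 and Cux2 passed the level filter only through their YAP Tg values, and Cyp4a14 only through its control values. The labels do not give the sex of the mice, and Kdm5d, given above, was at a similar level in all 6 libraries.

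The growth hormone axis that sets this bias was lower at its receptor. Ghr went from 863, 1008 and 889.5 in controls to 140.0, 142 and 149 in YAP Tg livers, and Igf1 fell by 1.22 ± 0.06 and Igfals by 1.83 ± 0.17. Bcl6, a repressor of female-biased genes in male liver, went from 25.2, 40.9 and 27.1 to 3.46, 2.44 and 3.03. In contrast the cytokine-signalling inhibitors Socs3 and Cish rose by 2.98 ± 0.12 and 1.67 ± 0.13. Of 24 genes in the list 9 were higher and 12 lower (11 higher and 9 lower in RPM, 4 and 9 averaged). Of all genes tested, 35.3% were higher and 33.3% lower. Igfbp2 fell from 418, 423 and 409.7 to 58.5, 56.2 and 57.3, while Igfbp1 was not called at -0.07.

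Iron genes held some of the most abundant rises, with 11 of 23 higher and 10 lower (13 higher and 6 lower in RPM, 7 and 7 averaged). Beside these counts, 35.3% of all genes tested were higher and 33.3% lower. Hamp, the iron hormone hepcidin, was at 106, 47.7 and 118 in controls and 565, 616 and 548 in YAP Tg livers, with control 2 the lowest. Cp, the ferroxidase ceruloplasmin, went from 2097, 2214 and 2162 to 6084, 6061 and 6397, and Slc40a1, the iron exporter that hepcidin degrades, rose by 1.29 ± 0.05. Genes that fell included the ferritin gene Fth1, from 457, 422 and 488 to 216, 234 and 226, Ftl1 by 0.80 ± 0.13, the transferrin receptor Tfrc by 0.95 ± 0.09 and the importer Slc11a2 by 1.27 ± 0.12.

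In the lipoprotein and lipid droplet list, 17 of 33 genes were lower and 6 higher (15 higher and 12 lower in RPM). Over all genes tested, 33.3% were lower and 35.3% higher. Apoa2, a component of high density lipoprotein, went from 3783, 5686 and 4179 to 708, 702 and 639.5, and Apoa4 from 141, 119.7 and 154 to 8.6, 9.28 and 8.02. Mttp, which loads lipid onto apolipoprotein B, fell by 1.92 ± 0.07, and Lipc, hepatic lipase, by 1.91 ± 0.07. Lpl (lipoprotein lipase), usually low in adult hepatocytes, rose from 54, 54.3 and 54 to 299, 307 and 317 and Vldlr from 3.92, 3.11 and 3.38 to 36.2, 35.9 and 37.8. Apoe, at 13853 and 14103 on average (95% interval -0.17 to 0.22), was not called.

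Of 9 adult liver isozyme genes 5 were lower and 1 higher (4 higher and 4 lower in RPM), and of 9 counterparts from fetal liver or other tissues 7 were higher and 1 lower (4 higher and 1 lower averaged). The adult count of higher genes was 2 without control 1 and with the Tet1 knockout libraries in the fit. Pklr, liver pyruvate kinase, fell from 174, 128 and 186 to 39.1, 39.8 and 39.99, while Pkm rose from 26.6, 27.6 and 21 to 81.1, 80.3 and 73.5. Gls2, liver-type glutaminase, fell by 1.61 ± 0.06. Pygl fell by 1.47 ± 0.06 while Pygb rose by 1.94 ± 0.08, and Hk2 rose by 1.62 ± 0.13. Exceptions were Slc2a2, the liver glucose transporter, which rose by 1.08 ± 0.06, and Acsl4, which fell by 0.76 ± 0.08. Over the whole glycolysis and pentose phosphate list 13 of 32 were higher and 11 lower (20 higher and 4 lower in RPM, 6 and 5 averaged). Among all genes tested, 35.3% were higher and 33.3% lower with TMM, and 7966 of 13527 were higher and 2268 lower in RPM. Ldha (interval -0.21 to 0.11) was not called.

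Of 31 amino acid and one-carbon genes 10 were higher and 13 lower (17 higher and 9 lower in RPM, 6 and 11 averaged), to be read against 35.3% and 33.3% of all genes tested. Of serine synthesis, Phgdh was at 0.643, 0.4 and 0.119 in controls and 5.22, 6.19 and 5.58 in YAP Tg livers and Psat1 at 1.99, 1.91 and 0.712 against 14.8, 13.6 and 13.4. Of the methionine cycle and its neighbours, Gnmt fell from 735, 859.7 and 800.1 to 163, 164 and 148, Ahcy by 0.97 ± 0.12, Cth by 1.47 ± 0.06 and Shmt2 by 1.48 ± 0.09. Bhmt rose by 0.72 ± 0.10, and the polyamine enzyme Odc1 by 1.14 ± 0.06.

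Endoplasmic reticulum and integrated stress genes were lower in 11 of 20 cases and higher in 5 (8 higher and 11 lower in RPM, 3 and 11 averaged). The chaperone genes Hspa5 and Hyou1 fell by 0.71 ± 0.06 and 1.61 ± 0.09, and Herpud1 went from 403, 444 and 422 to 148, 158 and 151. Trib3 rose by 1.29 ± 0.12, while Atf4 was not called (95% interval -0.18 to 0.16). NRF2 targets were higher in 8 of 19 cases and lower in 9 (10 higher and 5 lower in RPM, 5 and 6 averaged). Both the stress and the NRF2 counts outside brackets are to be read against 35.3% higher and 33.3% lower over all genes tested. Nqo1 rose from 4.5, 5.56 and 2.97 to 15.7, 16.3 and 15.8 and Hmox1 by 1.28 ± 0.13, whereas Gclc, which limits glutathione synthesis, fell from 683, 599 and 699.8 to 146, 158 and 156. Me1, malic enzyme, fell from 322, 173 and 338 to 12.3, 13.7 and 14.3.

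Of 17 clock genes tested 6 were higher and 6 lower (9 higher and 5 lower in RPM, 3 and 5 averaged). Both shares were near those over all genes tested, 35.3% and 33.3%. Dbp, an output factor with a strong daily rhythm, was at 4.15, 1.29 and 4.87 in controls and 28.1, 26.1 and 25 in YAP Tg livers, with control 2 the lowest, and Per3 rose by 1.84 ± 0.15. Clock fell from 207, 179 and 212 to 100.4, 105 and 106, and Cry1 by 1.57 ± 0.13. The hour at which livers were taken is not given in the sources used here, and its part in these values cannot be told apart from genotype.

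Chromatin and oncofetal RNA-binding genes were higher in 12 of 27 cases and lower in 6 (18 higher and 1 lower in RPM, 6 and 0 averaged). All genes tested had shares of 35.3% higher and 33.3% lower. Tet1, the DNA demethylating enzyme that the series studies, was at 0.935, 0.756 and 0.356 in controls and 9.9, 8.59 and 8.97 in YAP Tg livers, whereas Tet2 and Tet3 were not called. Igf2bp3, a fetal RNA-binding protein, went from 4.32, 4.14 and 3.8 to 20.8, 23.6 and 23.5. Uhrf1, which guides maintenance DNA methylation, rose from 1.64, 2.36 and 0.534 to 6.48, 4.74 and 5.47.

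**Figure D4:**
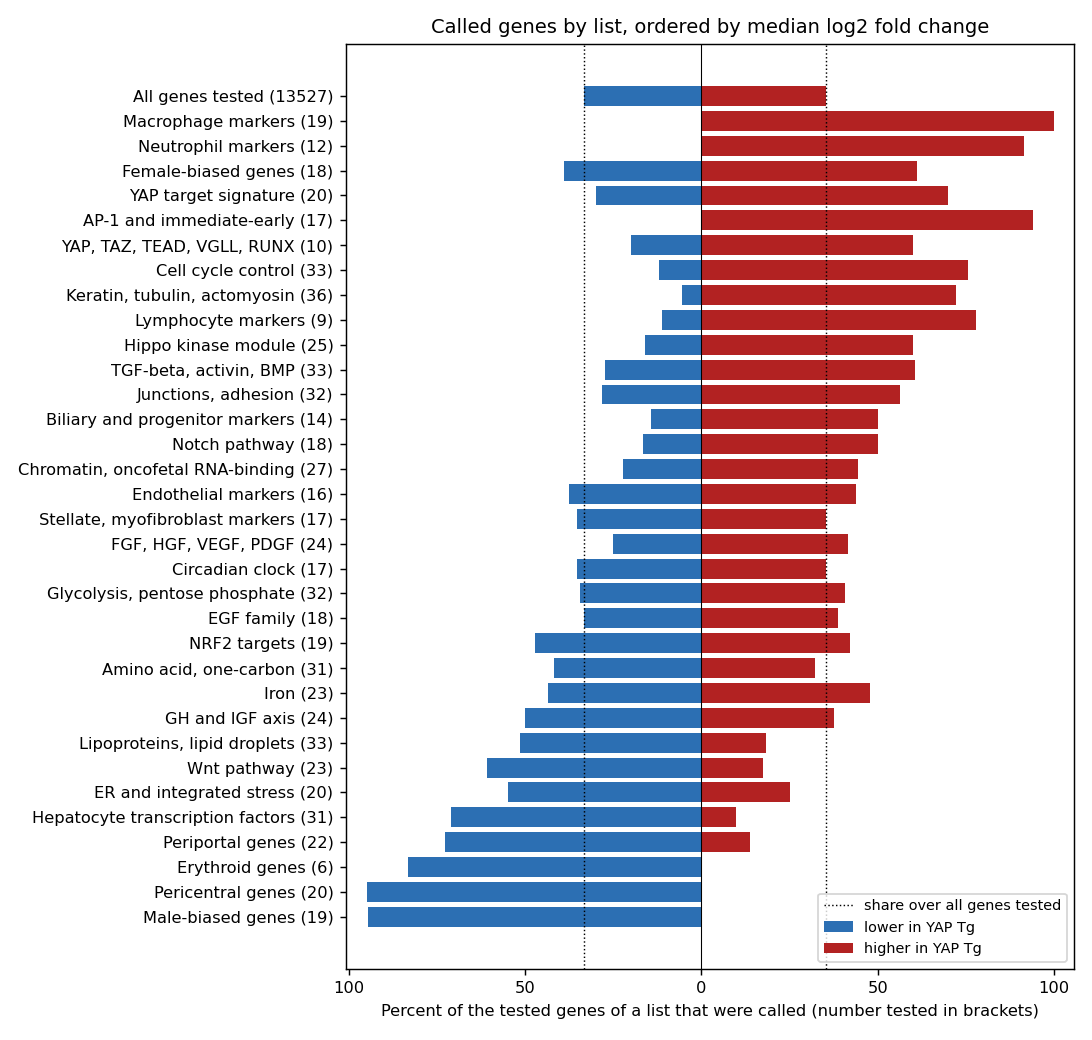
Percent of the tested genes of each list called higher (red, to the right) or lower (blue, to the left) in YAP Tg livers, ordered by median log2 fold change, with the number tested in brackets; dotted lines mark the shares over all 13527 genes tested, 35.3% higher and 33.3% lower. Below the bar of all genes, macrophage and neutrophil markers lie at the top, and pericentral and male-biased genes at the bottom.

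Markers of other cells changed alongside the hepatocyte genes. In bulk tissue, fewer cells of a type and less RNA per cell cannot be told apart. All 19 macrophage markers tested were higher, and their summed level was 587 to 763 in controls and 3082 to 3147 in YAP Tg livers. Clec4f, which marks resident Kupffer cells, was at 109, 148 and 122 against 493, 494 and 482. Cx3cr1, of recruited monocytes, was at 0.117, 0.4 and 0.297 against 11.5, 11.2 and 11.7. Of 12 neutrophil markers 11 were higher (6 of those that reached at least 2 normalised reads), with sums of 3.92 to 4.67 against 38 to 39.3, and S100a9 was at 0.117, 0.311 and 0.119 against 10.4, 9.04 and 10.6. S100a9 passed the level filter only through its YAP Tg values, and 2 of the 12 markers had no read in controls. For such genes the filter itself favours a rise, so the count adds no separate support to the sums.

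Of 9 lymphocyte markers tested 7 were higher and 1 lower (7 higher and 0 lower in RPM, 2 and 0 averaged), while Cd3e and Cd8a were too low to test and 2 of those that reached at least 2 normalised reads were higher. The largest rise of this list was that of Ptprc, the pan-leukocyte CD45, by 1.94 ± 0.07. The list median was 0.70, and 2 of the 9 were higher by at least 2-fold. Because Ptprc is not particular to lymphocytes, the summed level is not a measure of lymphocytes alone. Endothelial markers were evenly divided, 7 higher and 6 lower of 16 (10 higher and 2 lower in RPM, 1 and 1 averaged), and their sums of 672 to 729.6 and 734 to 754 lay close. Cd34, of capillary endothelium, rose from 2.1, 2 and 2.79 to 10.6, 10.6 and 11.2, and Lyve1, of sinusoids, fell by 0.65 ± 0.08. Among stellate cell markers 6 of 17 were higher and 6 lower (11 higher and 4 lower in RPM, 1 and 3 averaged). Both the endothelial and the stellate counts outside brackets are to be read against 35.3% higher and 33.3% lower over all genes tested. Their RPM counts are to be read against 7966 higher and 2268 lower of 13527 genes. The vitamin A enzyme Lrat fell from 66.5, 54.4 and 68.1 to 17.8, 20.9 and 20.9, and Acta2 rose by 1.17 ± 0.21. Of 6 erythroid genes 5 were lower, the heme enzyme Alas2, which is also read as an erythroid gene, going from 103, 127 and 110.2 to 8.14, 8.9 and 9.08. Both alpha-globin genes carry identical values in the table and should be read as 1 measurement, although the counts take each listed gene separately. Pancreas, gut, fat and muscle markers were mostly too low to test, the 5 tested being Cela1, Fabp2, Cfd and Fabp4, which were lower (Fabp4 turned to 0.027 in RPM without TMM), and Lgals4, which was not called. The part of these cells in the gene lists above was not tested.

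**Figure D5:**
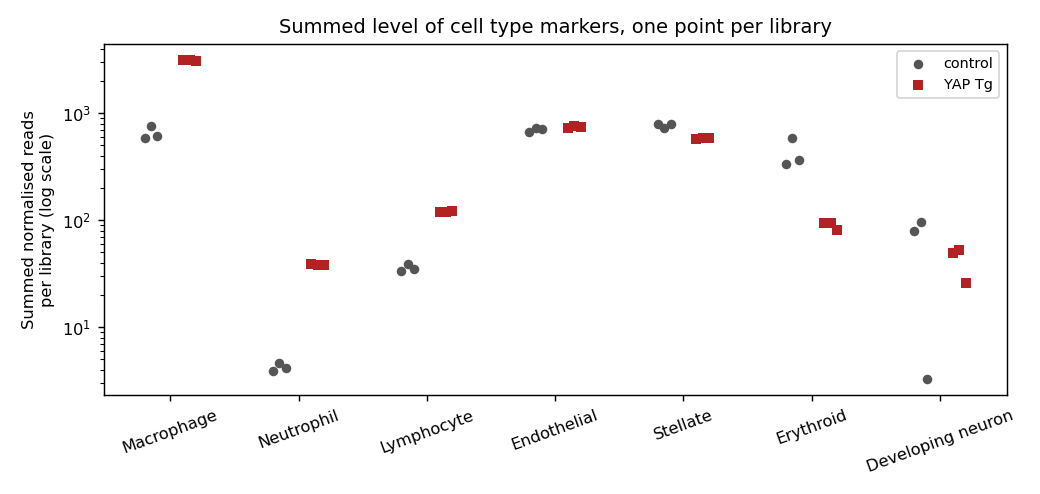
Summed normalised reads of 7 cell type marker lists in each library (vertical axis, log scale), grey circles for the 3 controls and red squares for the 3 YAP Tg livers. Macrophage, neutrophil and lymphocyte sums are higher and erythroid sums lower in YAP Tg livers, and developing neuron genes vary within both groups, from 3.26 to 95.8 in controls. The lymphocyte list includes the pan-leukocyte Ptprc.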

How the data were processed

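Liver RNA was extracted and sequenced by the submitters, and per the submitters' processing notes reads were aligned with TopHat2, counted with featureCounts and normalised with edgeR on mm10; versions and strand setting are not given in the sources used here. The deposited signal per gene is RPM scaled by TMM, per the file headers and values. The authors' table also holds a log2 fold change and an adjusted p-value (FDR) for this comparison, which were only compared: its 9281 signs for the called genes were the same as here, and it had 4839 tested genes higher and 4683 lower at an FDR below 0.05.

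Low values stepped in whole reads, and 100% of values up to 1000 reads came out whole within 0.02 reads. The recovered 19954131 to 25067861 reads per library gave read totals and a count test (edgeR 4.0.16, quasi-likelihood) as an alternative, which called 4787 genes higher and 4536 lower. The precision of a value depends on these totals, and floors and intervals from reads cover counting error only.

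Values were tested as log2(value + 0.5) with limma 3.58.1 (empirical Bayes with trend, R 4.3.3) in the 6 libraries. Benjamini-Hochberg adjustment ran over 13527 genes. The same fit was also run on simulated data, with an outcome not reported here. Fold changes on this scale understate the change of low genes. Symbols are as deposited with mouse case restored. Of 18591, 17473 matched RefSeq directly and 753 by a synonym, 286 matched another name table and 79 had no match. The table held 3 more per-sample columns, of decitabine-treated livers, which were not used.

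Members and gene lists were chosen with earlier results of these data known. Named genes are members of those lists (for full values, the first 3 as written and up to 4 of the largest changes in each direction), the 10 largest gains and losses of normalised reads among called genes, the 10 largest log2 rises and falls with a group mean of at least 5 and no overlap, and the 5 genes above 100 nearest to no change. Other list members are named with fewer values, and some genes are not reported here. Alternatives were pseudocount, filter, scaling, count tools, added libraries, averaged libraries, a replicate block and leaving out each library.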

Additional observations from a re-analysis of the deposited data

How the results depend on the processing

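Scaling and the independence of libraries set how far the counts can be read. In RPM without TMM, 7966 genes were higher and 2268 lower, and 3157 and 719 by at least 2-fold. When near-identical libraries were averaged, 2492 were higher and 2024 lower. A pseudocount of 2 left 1294 genes at least 2-fold higher. The other settings that kept all libraries changed none of these 4 counts by over 1.5 times. Of 80 counts of genes higher or lower in a list, 29 moved by more than that in RPM, 35 with libraries averaged, 5 among genes that reached at least 2 normalised reads, 1 to 7 without 1 library, and 0 to 2 under each other setting. Leaving out 1 library at a time gave 4238 to 5286 higher and 4002 to 5049 lower genes, and 1948 to 2068 and 1245 to 1398 by at least 2-fold. Correlations of deviations between the groups were 0.00545, 0.13 and 0.256 for libraries of the same replicate number. They were -0.213 to 0.11 for libraries of different numbers. Whether the numbers pair the libraries is not stated and was not tested. A replicate block gave 4738 higher and 4505 lower genes, 1984 and 1284 by at least 2-fold. Of 266 genes named in the text, 33 lost their call with near-identical libraries averaged, all but Rn45s with a change below 1 on the log2 scale, and 19 changed sign without TMM. Of these, Ccdc80 (0.035), Igfbp3 (0.073), Fabp4 (0.027), Eif2s3y (0.0074) and Rbl2 (0.0037) had been called lower. The others had not been called and were then called higher: Apoa1 (0.40), Atf4 (0.43), C9 (0.44), Hgf (0.27), Igfbp1 (0.37), Kdm5d (0.42), Klb (0.38), Ldha (0.39), Nf2 (0.34), Sav1 (0.42), Slc25a39 (0.44), Stk3 (0.30), Timd2 (0.44) and Uty (0.29). A further 16 of the named genes were called in RPM, but not with TMM, without a change of sign. In RPM 6 others lost their call with the same sign. Without control 3, Tubb2b (-0.90) and Tubb3 (-0.98) changed sign and were called lower, and without control 2 they were at 1.04 and 0.89. The cause was not tested. Depth limits genes below a few normalised reads, where the median standard error was 0.18 against 0.08 above 1000.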
